A study of Mus musculus with 32 samples.

Results

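Immediate early genes, a set of 10, were followed in trachea and lung of Car6-/- mice and of their wild-type counterparts. Car6 encodes a carbonic anhydrase that is released into saliva and other secretions. The 10 genes were Fos, Fosb, Jun, Junb, Egr1, Ier2, Ier3, Atf3, Dusp1 and Nr4a1. A gene belonged to the set when a probe of the bead array carried its symbol in the platform's annotation, and each of the 10 had exactly 1 probe, among 16593 named genes in all. As far as the labels go, the animals shared strain (C57BL/6), sex (male) and an age of 2 months, and differed in genotype alone. Trachea was represented by 6 Car6-/- and 8 wild-type samples, and lung by 6 Car6-/- and 8 wild-type samples. Samples carry a number within each genotype, and no label states whether equal numbers in both tissues mark the same animal, or whether the numbered samples of a group were separate animals. The p-values below therefore measure the spread between these samples.

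Immediate early genes are switched on within minutes of a stimulus by factors that are already present in the cell, such as serum response factor with its ternary complex partners at CArG boxes and CREB at cyclic AMP response elements, so that no new protein has to be made first. Their transcripts are short-lived, and many encode transcription factors that carry the response further. Proteins of the Fos and Jun families pair to form AP-1, Egr1 is a zinc finger factor, Atf3 is a stress-induced factor of the leucine zipper class, and Nr4a1 is an orphan nuclear receptor. Dusp1 is a phosphatase that switches off the MAP kinases which induce these genes, and Ier3 and Ier2 are response genes that do not belong to those factor families.

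Values are normalized log2 intensities, and a difference of 1 is a doubling of intensity. A probe was called detected when its detection p-value, which ranks it among negative control beads, was under 0.01. Differences were tested with limma over all genes that reached detection in 6 or more samples of a comparison, and a gene was called at a Benjamini-Hochberg adjusted p under 0.05. Each array detected 11735 to 13139 of 25697 probes. Car6 itself passed the detection threshold on 0 of 32 arrays (lowest detection p-value 0.12), so the genotype labels could not be checked by the targeted transcript. All 8 alveolar type 2 markers measured were detected in every lung, and their summed intensity was 1971 to 23555 in Car6-/- tracheas and 2553 to 4776 in wild-type tracheas, against 47952 to 54201 in Car6-/- lungs and 50417 to 52896 in wild-type lungs. Of 8 cartilage markers, 4 were detected in every sample of each trachea group, and 6 were detected in none of the lungs. Several samples stood apart in markers of other tissues. Car6-/- tracheas 1 and 2 had the highest alveolar type 2 sums of the tracheas (18511 and 23555) and the lowest sums of 10 skeletal muscle markers (2634 and 20131, against 36237 to 54889 in the other 4 Car6-/- tracheas and 49666 to 83663 in wild-type tracheas). Car6-/- trachea 6 had the next highest alveolar type 2 sum of that group, 5173. Thyroid markers summed to 163 to 184 in Car6-/- tracheas 1, 2 and 7, against 15129 to 18277 in wild-type tracheas. Among lungs, Car6-/- lung 5 had a skeletal muscle sum of 12247 and wild-type lung 6 one of 2627, against 330 to 867 in the other lungs.

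The 4 promoters shown here belong to Ier3, Jun and Dusp1, whose transcripts separated trachea from lung, and to Fos, whose level varied widely between lungs. They are the 250 bases before the start site in the RefSeq promoter table of build GRCm38.p6, written 5′ to 3′ on the strand of the gene; 8 of the 10 genes had an entry, and Egr1 and Ier2 had none. Capitals mark the cyclic AMP response element TGACGTCA, its 5-base half-site TGACG, the AP-1 site TGACTCA, the variant AP-1 site TGACATCA and CArG boxes, searched on both strands, where the half-site also lies inside the full element. The variant site was added after the sequences had been seen.
Ier3, chr17:35821463-35821712, plus strand: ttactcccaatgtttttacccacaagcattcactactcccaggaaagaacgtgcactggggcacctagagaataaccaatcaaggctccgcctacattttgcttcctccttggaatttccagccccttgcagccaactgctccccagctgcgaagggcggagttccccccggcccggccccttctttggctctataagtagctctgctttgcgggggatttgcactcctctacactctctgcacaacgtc
Jun, chr4:95052223-95052472, minus strand: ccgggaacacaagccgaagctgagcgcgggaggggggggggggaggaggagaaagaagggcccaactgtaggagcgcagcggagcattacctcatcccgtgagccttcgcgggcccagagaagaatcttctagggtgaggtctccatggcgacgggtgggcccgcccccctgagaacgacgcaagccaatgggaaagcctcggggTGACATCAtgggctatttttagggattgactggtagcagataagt
Dusp1, chr17:26508473-26508722, minus strand: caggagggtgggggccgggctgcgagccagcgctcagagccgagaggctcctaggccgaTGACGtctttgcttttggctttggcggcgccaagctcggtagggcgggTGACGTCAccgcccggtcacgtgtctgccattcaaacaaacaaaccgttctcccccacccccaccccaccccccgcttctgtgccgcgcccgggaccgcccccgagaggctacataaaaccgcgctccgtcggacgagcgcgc
Fos, chr12:85473640-85473889, plus strand: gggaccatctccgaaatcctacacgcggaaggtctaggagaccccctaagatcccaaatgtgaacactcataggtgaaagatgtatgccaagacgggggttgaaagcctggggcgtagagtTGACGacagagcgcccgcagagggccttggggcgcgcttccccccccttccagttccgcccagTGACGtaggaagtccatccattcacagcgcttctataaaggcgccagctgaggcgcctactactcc

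The full cyclic AMP response element was found in Dusp1 alone among the 8 promoters, from 143 to 136 bases before the start, and in 1.55% of the 32851 promoters of the table. Its half-site TGACG was found in 17.8% of all promoters. Fos held it at 2 places, 129 and 66 bases before the start, and Dusp1 at 3, of which 2 are the arms of the full element. Nr4a1 held 4 half-sites, and Fosb, Junb and Atf3 held 1 each. Jun held the variant AP-1 site from 45 to 38 bases before the start, which 2.93% of all promoters held and none of the other 7. The AP-1 site TGACTCA (4.46% of all promoters) and the CArG box (1.47%) were in none of the 8 windows. The Ier3 window held none of the marked motifs. Other motifs were searched and are not in capitals. The Egr-type site GCGNGGGCG (4.7% of all promoters) was present in Fosb and Nr4a1, and the sequence TATAAA (12.4%) in Fos, 33 bases before its start. The NF-kB site was searched by a simplified pattern, not by its full consensus, and 17.6% of all promoters held a match. This pattern occurred at 2 places in Fosb and at 1 in each of Atf3 and Dusp1. NF-kB sites that depart from the pattern, in Ier3 or elsewhere, were not searched. In Fosb, 1 of the matches to the NF-kB pattern overlaps the Egr-type match. A match describes the letters of the window only.

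**Figure D1:**
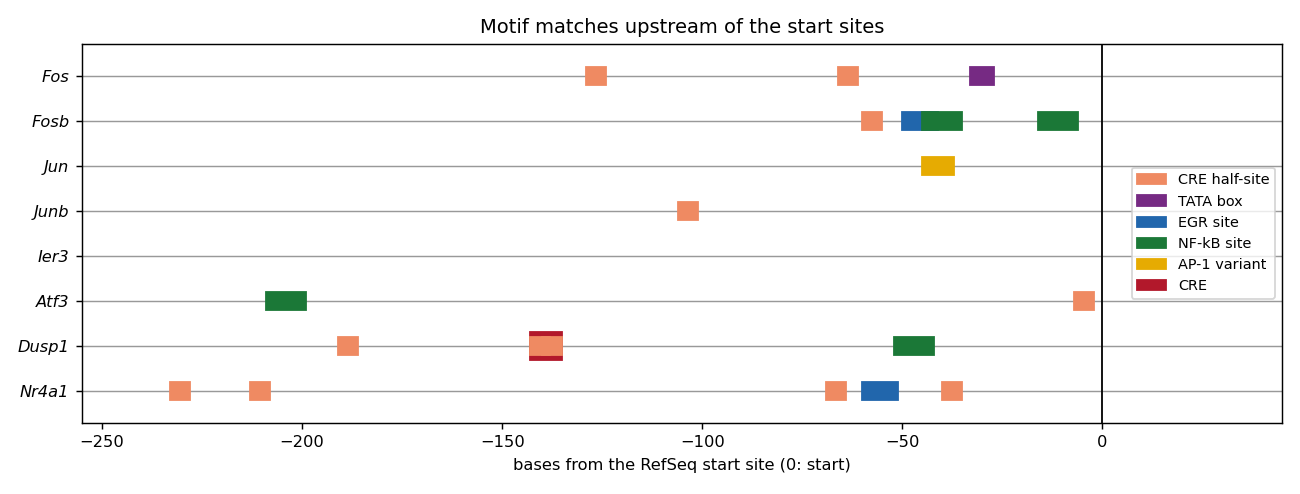
Motif matches in the 250 bases before the RefSeq start sites of 8 immediate early genes, with distance from the start in bases on the horizontal axis and 1 line per gene. The full cyclic AMP response element appears in Dusp1 only, 143 bases before the start, and the variant AP-1 site in Jun only. The Ier3 line is empty, as it held no match to the patterns searched.

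Most of these genes were detected in both tissues. Fos, Jun, Junb, Egr1, Ier3 and Dusp1 were detected in 28 of 28 samples, Atf3 in 22 and Fosb in 13. Ier2 was detected in 4 samples, which were Car6-/- lungs 2 and 5 and wild-type lungs 1 and 8, and in 0 tracheas. Nr4a1 was not detected in any of the 28 samples: its lowest detection p-value on the 32 arrays was 0.071 and its signal lay between 76.9 and 100.5 intensity units. Ier2 and Nr4a1 therefore entered no test, and no fold change is given for either. Ier2 reached 5.98 in Car6-/- lung 5 and 5.19 in Car6-/- lung 2, against 5.62 in wild-type lung 1 and 5.29 in wild-type lung 8. Its other 24 samples lay between 4.23 and 4.89.

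**Figure D2:**
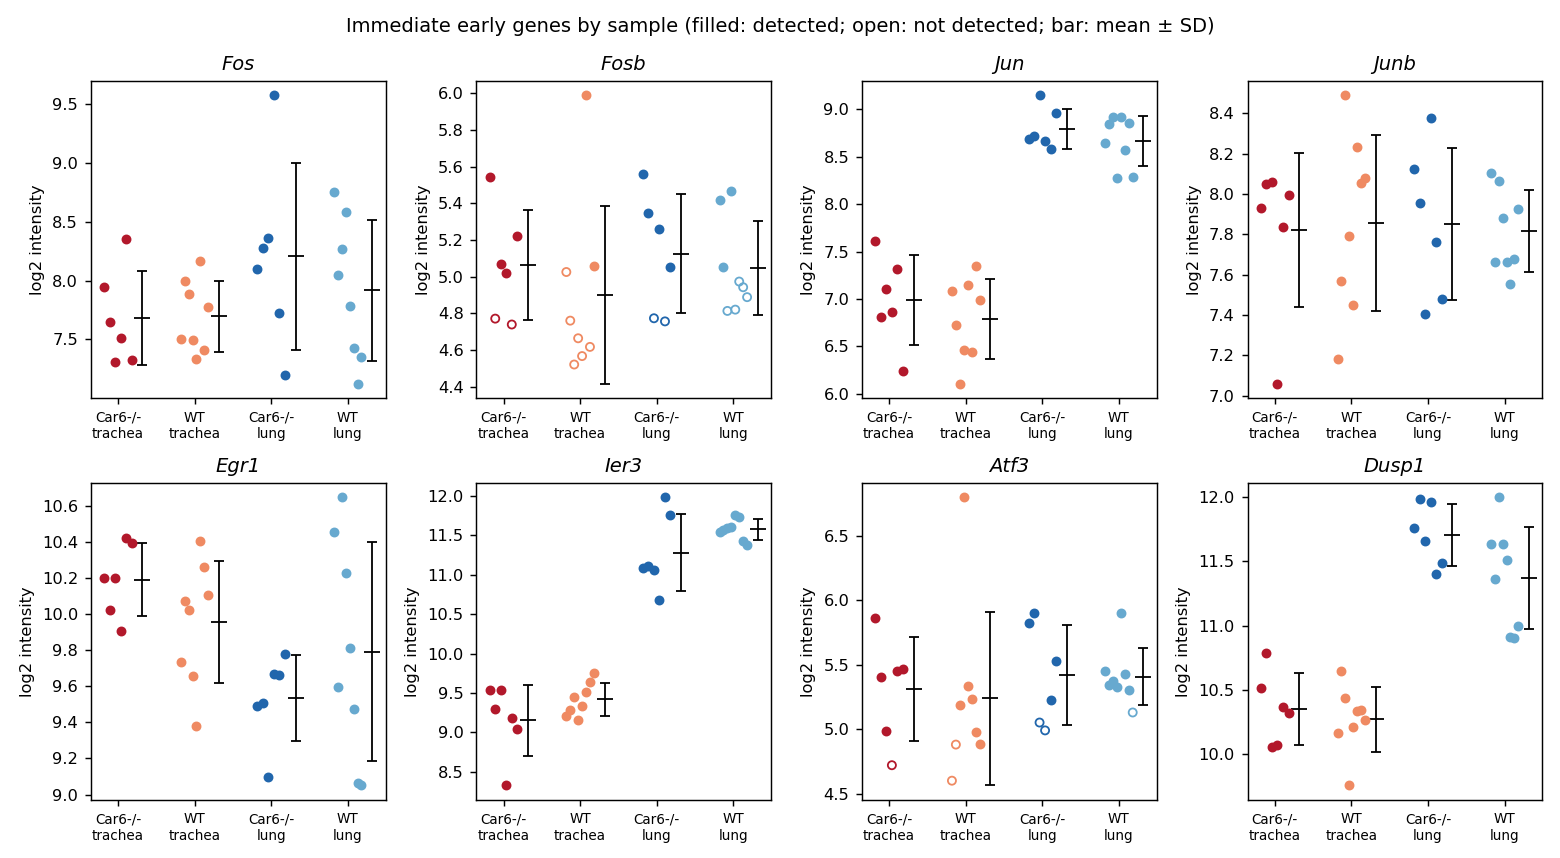
Normalized log2 intensity (vertical axis) of 8 immediate early genes in each sample of Car6-/- trachea (n = 6), wild-type trachea (n = 8), Car6-/- lung (n = 6) and wild-type lung (n = 8). Filled points were detected, open points were not, and the bar beside each group is its mean and SD. Jun, Ier3 and Dusp1 show the tracheas below all lungs, and Fos and Egr1 show wide scatter in lung.

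In lung, the question was whether loss of the enzyme shifted these genes. None of the 8 tested genes was called, in a comparison where 0.0212% of 9417 genes were called. An unadjusted limma p under 0.05 was found for 0 of the 8 and for 9.39% of all genes. Changes ran from -0.30 to 0.34, with a median of 0.06 against -0.0030 over all genes. Nor did the groups separate for any of the 8, where 0.212% of all genes did not overlap.

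Dusp1, the MAP kinase phosphatase, came closest. Its lowest, median and highest values were 11.40, 11.71 and 11.98 in Car6-/- lung, against 10.91, 11.44 and 12.00 in wild-type lung. All 6 Car6-/- lungs lay above the wild-type mean, yet the highest single value belonged to wild-type lung 3 and the groups overlapped. The difference was 0.34 ± 0.16 (SE; 95% interval -0.01 to 0.68; limma adjusted p = 0.54). Without Car6-/- lung 5 and wild-type lung 6 it was 0.22 (limma adjusted p = 0.73).

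Ier3, which modulates survival and ERK signalling, had values of 10.69, 11.10 and 11.99 in Car6-/- lung, against 11.38, 11.58 and 11.76 in wild-type lung. Car6-/- lung 6 lay above every wild-type lung and Car6-/- lung 7 near the top of their range, and the other 4 lay below every wild-type lung. The difference was -0.30 ± 0.16 (SE; limma adjusted p = 0.59), and -0.15 without Car6-/- lung 5 and wild-type lung 6 (limma adjusted p = 0.79). Egr1 had values of 9.10, 9.59 and 9.78 in Car6-/- lung, against 9.05, 9.70 and 10.65 in wild-type lung. Every Car6-/- lung was below the wild-type mean but inside the wild-type range, and the difference was -0.26 ± 0.23 (SE; limma adjusted p = 0.81).

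Fos had values of 7.19, 8.19 and 9.57 in Car6-/- lung, against 7.12, 7.92 and 8.75 in wild-type lung. The highest was Car6-/- lung 5, one of the samples with raised muscle markers, and the remaining Car6-/- lungs lay inside the wild-type range. The difference was 0.29 ± 0.32 (SE; 95% interval -0.39 to 0.96; limma adjusted p = 0.85). Without Car6-/- lung 5 and wild-type lung 6 it changed sign to -0.057 (limma adjusted p = 0.97). Jun differed by 0.13 ± 0.12 (SE), Fosb by 0.08 ± 0.14, Junb by 0.04 ± 0.14 and Atf3 by 0.01 ± 0.15, all with limma adjusted p of at least 0.82.

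The same question was put to trachea. None of 8 genes was called in Car6-/- against wild-type trachea, where 0% of 9736 genes were called and 1674 genes had an unadjusted limma p under 0.05, but 0 of these 8. The groups overlapped for all 8, where 0.226% of all genes did not overlap (0.144% higher and 0.0822% lower). Changes ran from -0.26 to 0.24, with a median of 0.08 against 0.04 over all genes.

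Egr1 had values of 9.91, 10.20 and 10.42 in Car6-/- trachea, against 9.38, 10.05 and 10.40 in wild-type trachea. The Car6-/- tracheas filled the upper part of the wild-type range, with 5 of 6 above the wild-type mean. The difference was 0.24 ± 0.16 (SE; 95% interval -0.10 to 0.57; limma adjusted p = 0.45). Ier3 had values of 8.33, 9.24 and 9.54 in Car6-/- trachea, against 9.16, 9.40 and 9.75 in wild-type trachea, and differed by -0.26 ± 0.17 (SE; limma adjusted p = 0.45). Car6-/- trachea 5 was its lowest sample, and Car6-/- tracheas 5 and 7 (8.33 and 9.04) lay below every wild-type trachea.

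The other 6 genes differed by at most 0.21 in either direction, with Jun at 0.21 ± 0.23 (SE) and Fos at -0.01 ± 0.18. Leaving out Car6-/- tracheas 1, 2 and 6 turned the difference of Jun to -0.048, of Atf3 to -0.18 and of Dusp1 to -0.12, and moved Fos to -0.31 and Ier3 to -0.45, with limma adjusted p of 0.936 or more. The median over the 7 genes still tested was then -0.15. The 10 skeletal muscle markers had a median change of -1.83 and the 7 thyroid markers one of -2.61 in Car6-/- against wild-type trachea, with 0 called in either list, and their part in these values was not tested.

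Whether Car6 loss acted unequally in trachea and lung was tested as an interaction over the 4 groups. None of the 8 tested genes showed a called difference between trachea and lung in the effect of Car6 loss, against 0% of 10532 genes. The widest difference was that of Egr1, 0.49 ± 0.29 (SE; 95% interval -0.11 to 1.10; limma adjusted p = 0.46), whose estimate was positive in trachea and negative in lung. Fos followed with -0.30 ± 0.40 (SE) and Dusp1 with -0.26 ± 0.23.

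**Figure D3:**
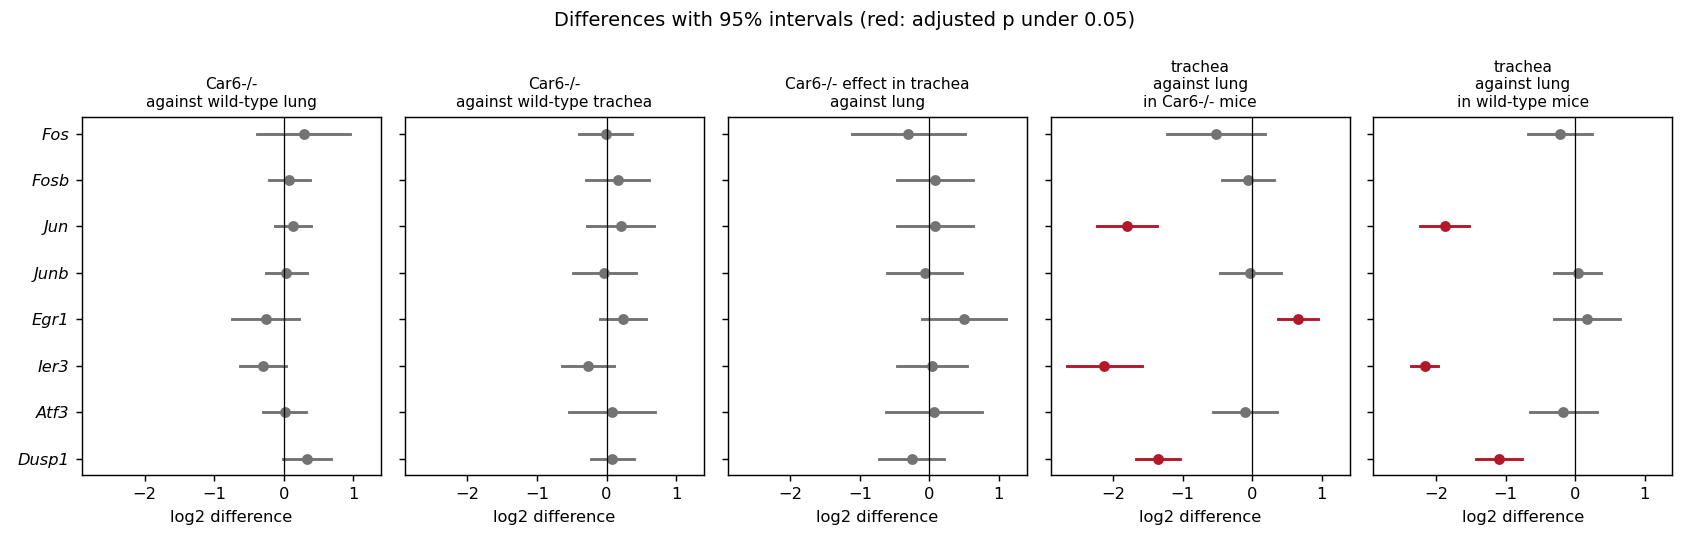
Log2 differences of 8 immediate early genes (points) with 95% limma intervals (lines) in 5 comparisons, 1 panel each; red marks an adjusted p under 0.05. All genotype intervals cross 0, and Jun, Ier3 and Dusp1 lie between -2.16 and -1.10 in both comparisons of trachea with lung.

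Trachea and lung differed in several of these genes. Ier3, Jun and Dusp1 were lower in trachea than in lung in both genotypes, and Egr1 was higher in trachea in Car6-/- mice. In Car6-/- mice 4 of 8 tested genes were called, 3 lower and 1 higher. Over all 9500 genes tested in these samples 48.4% were called, 28.1% lower and 20.4% higher. In wild-type mice 3 of 7 were called, all lower, beside 68.3% of 10019 genes, 38.5% lower and 29.8% higher. The share of the set that was called was thus close to that of all genes in Car6-/- mice and below it in wild-type mice. The median change of the tested genes was -0.31 in Car6-/- mice and -0.22 in wild-type mice, against -0.07 and -0.09 over all genes in the same comparisons. Among the genes detected in all samples, 6 of the set, the medians were -0.94 in Car6-/- mice and -0.66 in wild-type mice.

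Ier3 showed the widest gap. It had values of 8.33, 9.24 and 9.54 in Car6-/- trachea, against 10.69, 11.10 and 11.99 in Car6-/- lung. Every trachea lay below every lung. The difference was -2.13 ± 0.25 (SE; limma adjusted p = 1.71e-05), or 4.37-fold lower. In wild-type mice Ier3 had 9.16, 9.40 and 9.75 in trachea, against 11.38, 11.58 and 11.76 in lung. The groups were again apart, by -2.16 ± 0.09 (SE; limma adjusted p = 6.07e-13), or 4.47-fold lower.

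Jun, the AP-1 subunit, had values of 6.25, 6.99 and 7.62 in Car6-/- trachea, against 8.58, 8.70 and 9.14 in Car6-/- lung. The difference was -1.80 ± 0.20 (SE; limma adjusted p = 1.10e-05), or 3.48-fold lower, and no trachea reached a lung. Wild-type tracheas had 6.11, 6.85 and 7.34, against 8.28, 8.74 and 8.92 in wild-type lungs. The difference was -1.88 ± 0.17 (SE; limma adjusted p = 1.47e-08), or 3.67-fold lower, again with no overlap.

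Dusp1 had values of 10.06, 10.34 and 10.79 in Car6-/- trachea, against 11.40, 11.71 and 11.98 in Car6-/- lung, a difference of -1.35 ± 0.15 (SE; limma adjusted p = 1.05e-05). The tracheas were all lower, by 2.56-fold on average. In wild-type mice it had 9.76, 10.30 and 10.64 in trachea, against 10.91, 11.44 and 12.00 in lung, a difference of -1.10 ± 0.16 (SE; limma adjusted p = 6.86e-06). The fold was 2.14, and the lowest lung still exceeded the highest trachea.

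Non-overlap of this kind was common on the array. It held for 4 of 8 tested genes in Car6-/- mice, where it held for 29.1% of all genes (16.9% lower and 12.2% higher), and for 3 of 7 in wild-type mice, where it held for 36.6% (21.2% lower and 15.5% higher). Leaving out Car6-/- tracheas 1, 2 and 6 gave -2.31 for Ier3, -2.05 for Jun and -1.56 for Dusp1, all still called. Because whole tissue was measured, fewer cells of a type and less RNA per cell cannot be told apart. The 6 endothelial markers tested were all called lower in trachea in both genotypes, with summed intensities of 2029 to 5632 in Car6-/- trachea and 16017 to 19732 in Car6-/- lung, and of 1823 to 2656 in wild-type trachea and 16014 to 18155 in wild-type lung. The 8 alveolar type 2 markers were also called lower in both, and the skeletal muscle markers tested were called higher (9 of 9 in Car6-/- mice, 10 of 10 in wild-type mice). The part of these cell types in the differences of Ier3, Jun and Dusp1 was not tested.

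Egr1 ran the other way. It had values of 9.91, 10.20 and 10.42 in Car6-/- trachea, against 9.10, 9.59 and 9.78 in Car6-/- lung, and every trachea exceeded every lung. The difference was 0.66 ± 0.13 (SE; limma adjusted p = 0.0011), or 1.58-fold higher. Wild-type tracheas had 9.38, 10.05 and 10.40, against 9.05, 9.70 and 10.65 in wild-type lungs. These groups overlapped throughout and differed by 0.16 ± 0.23 (SE; limma adjusted p = 0.53). The difference between the genotypes in this contrast is the same quantity as the 0.49 ± 0.29 above and was not called. Wild-type lungs had an Egr1 SD of 0.61, against 0.24 in Car6-/- lungs.

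The remaining genes did not pass the test between the tissues. Fos differed by -0.52 ± 0.33 (SE) in Car6-/- mice and by -0.22 ± 0.22 in wild-type mice, with limma adjusted p of 0.21 and 0.38. Junb, an AP-1 subunit that can oppose Jun, was level: its group means were 7.82 ± 0.38 in Car6-/- trachea, 7.85 ± 0.44 in wild-type trachea, 7.85 ± 0.38 in Car6-/- lung and 7.82 ± 0.20 in wild-type lung (SD, n = 6, 8, 6 and 8). Its tissue difference had 95% intervals of -0.47 to 0.41 in Car6-/- mice and -0.30 to 0.38 in wild-type mice. Fosb and Atf3 lay near background. Atf3 differed by -0.11 ± 0.21 (SE) in Car6-/- mice and by -0.17 ± 0.23 in wild-type mice. One sample decided the wild-type value: without wild-type trachea 4, the difference was -0.39 and passed the test (limma adjusted p = 0.0078). Fosb differed by -0.06 ± 0.17 (SE) in Car6-/- mice and was detected in too few wild-type samples to be tested.

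By level, the order of the 4 group means differed between some genes and was shared by others. Jun and Dusp1 both rose from wild-type trachea over Car6-/- trachea and wild-type lung to Car6-/- lung. Levels of different probes were not set against each other. For Ier3, Jun and Dusp1 the order split into both trachea groups below both lung groups, and the genotypes within a tissue did not differ beyond their spread. Egr1 was highest in Car6-/- trachea (10.19 ± 0.20), followed by wild-type trachea (9.95 ± 0.34), wild-type lung (9.79 ± 0.61) and Car6-/- lung (9.53 ± 0.24; SD, n = 6, 8, 8 and 6). Neighbours in that order overlapped, and of the 4 comparisons made only that of Car6-/- trachea with Car6-/- lung passed the test. Fos means were 7.68 ± 0.40 in Car6-/- trachea, 7.69 ± 0.30 in wild-type trachea, 8.20 ± 0.80 in Car6-/- lung and 7.92 ± 0.60 in wild-type lung (SD, n = 6, 8, 6 and 8), and the ranges of all 4 groups overlapped.

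Fos varied widely between lungs of both genotypes, and Egr1, Dusp1, Ier3, Atf3 and Junb had a wide spread in lungs of 1 genotype. The SD of Fos was 0.80 in Car6-/- lung and 0.60 in wild-type lung, where only 0.579% and 1.06% of 10532 genes had a larger one and the median gene had 0.17 in each. In single samples Fos spanned 5.20-fold over the Car6-/- lungs and 3.09-fold over the wild-type lungs. The SD of Egr1 was exceeded by 24.6% of genes in Car6-/- lung and by 1.04% in wild-type lung. For Ier3 these shares were 1.84% in Car6-/- lung and 71.5% in wild-type lung, and for Dusp1 24.3% and 3%. In the same order they were 4.04% and 28.2% for Atf3, which lay near background, and 4.84% and 35.4% for Junb. In trachea, 36.8% of genes had a larger SD than Fos in Car6-/- mice and 34.6% in wild-type mice. The median gene varied more there than in lung, with an SD of 0.32 in Car6-/- trachea and 0.25 in wild-type trachea. Fos had 0.40 and 0.30 in these groups. No test of a difference in spread was made.

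The lungs that were high or low were shared between Fos, Egr1 and Dusp1 in wild-type mice. Wild-type lungs 1, 3 and 4 held the 3 highest values of each of these 3 genes, and wild-type lungs 6, 7 and 8 the 3 lowest. Fos was 8.75, 8.27 and 8.58 in lungs 1, 3 and 4, and 7.42, 7.12 and 7.35 in lungs 6, 7 and 8. Egr1 was 10.46, 10.65 and 10.23 in the first 3 and 9.47, 9.06 and 9.05 in the others, and Dusp1 was 11.63, 12.00 and 11.63 against 10.91, 10.91 and 11.00. The pattern was noticed after the values were seen. The same 3 lungs on top and the same 3 at the bottom were found for 14 of 10532 genes (0.133%), 3 of which are Fos, Egr1 and Dusp1 themselves, and for 0 of the 31 other immediate early genes tested.

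Car6-/- lungs did not share this arrangement. There the 3 highest samples were 5, 4 and 2 for Fos, 7, 5 and 6 for Egr1 and 2, 5 and 1 for Dusp1. Car6-/- lung 5, the sample with raised muscle markers, had the highest Fos (9.57) and Junb (8.38) and the lowest Ier3 (10.69) and Atf3 (4.99) of its group. The median array signals of wild-type lungs 1, 3 and 4 were 97.0, 107.0 and 93.1, and those of lungs 6, 7 and 8 were 113.0, 113.7 and 94.8. Their endothelial sums were 16194, 17878 and 17051 in lungs 1, 3 and 4, and 16279, 16014 and 16506 in lungs 6, 7 and 8. The sets overlapped in both measures, and the part of either measure in the order of the lungs was not tested. Wild-type lung 6 carried muscle and thyroid markers (sums of 2627 and 1426), and the part of these in its low values was not tested.

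**Figure D4:**
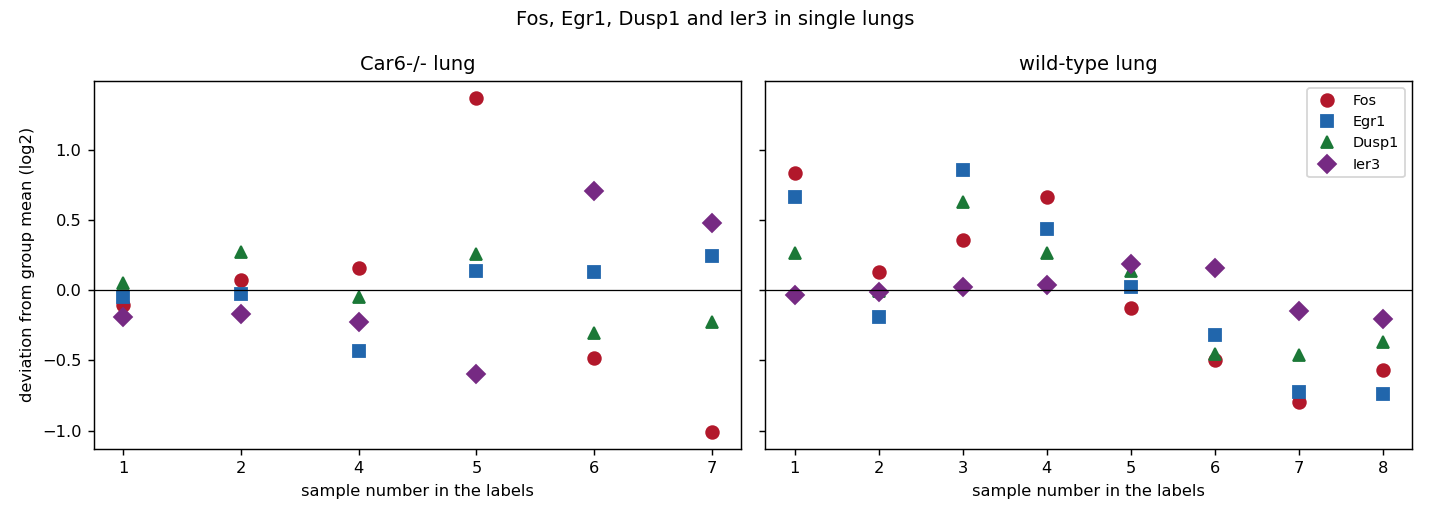
Deviation of each lung from its group mean (log2, vertical axis) for Fos, Egr1, Dusp1 and Ier3, by sample number, in Car6-/- lungs (left, n = 6) and wild-type lungs (right, n = 8). In wild-type mice Fos, Egr1 and Dusp1 lie above 0 in lungs 1, 3 and 4 and below 0 in lungs 6, 7 and 8; in Car6-/- mice lung 5 has the highest Fos deviation, 1.37, and the lowest Ier3 deviation, -0.60.

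Among tracheas, wild-type trachea 6 was the highest of its group for Fos (8.17), Fosb (5.99) and Egr1 (10.40). Car6-/- trachea 5 was the lowest of its group for Junb (7.06), Egr1 (9.91), Ier3 (8.33) and Atf3 (4.72), and lay above the group median for 0 of 8 genes. Its second array repeated these values to within 0.16 for the 4 genes. The second array of Car6-/- lung 1 differed from the first by at most 0.13 for the 8 tested genes. In wild-type lung 2 the second array was higher by 0.38 for Fosb, 0.34 for Egr1 and 0.22 for Junb and lower for Atf3 (-0.20, second minus first), and the other 4 genes differed by 0.04 or less. Wild-type trachea 2 had the widest gaps of the 4 repeated samples: its second array was lower by 1.13 for Jun (-1.13, second minus first) and higher by 1.04 for Atf3, 0.58 for Fosb, 0.45 for Fos and 0.34 for Egr1. For Ier3, Dusp1 and Junb the 2 arrays of that sample differed by 0.08 or less.

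Other immediate early genes, a list of 49 symbols of which 43 were on the array, were counted in the same fits. In Car6-/- against wild-type lung, 0 of 29 tested were called, beside 0.0212% of all genes. Their median change was 0.15, against -0.0030 over all genes. The estimate was higher for 48.8% of all genes and for 23 of the 29. An unadjusted limma p under 0.05 was found for 9.39% of all genes and for 7 of the 29. The 4 with the smallest p were Csrnp1 (0.45 ± 0.14), Ppp1r15a (0.20 ± 0.07), Sgk1 (0.27 ± 0.09) and Gadd45g (0.33 ± 0.12; SE), with limma adjusted p of 0.26 to 0.34. In Car6-/- against wild-type trachea 0 of 29 were called, beside 0% of all genes, with a median change of 0.07 against 0.04. There an unadjusted limma p under 0.05 was found for 17.2% of all genes and for 5 of the 29.

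Between the tissues, 19 of 30 were lower in trachea and 2 higher in Car6-/- mice, so that 70% were called, beside 48.4% of all genes (28.1% lower and 20.4% higher). In wild-type mice 21 of 30 were lower and 3 higher, 80% in all, beside 68.3% of all genes (38.5% lower and 29.8% higher). Of the 30, 18 were called lower in both genotypes, 2 higher in both and 0 in opposite directions. This agreement was not counted over all genes, so the share to set beside it is not known. The median change was -0.70 in Car6-/- mice and -0.59 in wild-type mice. Gadd45b, a growth arrest and stress response gene, fell by 1.84 ± 0.22 (SE) in Car6-/- trachea and by 1.67 ± 0.08 in wild-type trachea relative to lung. Errfi1, an inhibitor of the EGF receptor, fell by 1.71 ± 0.21 and 1.52 ± 0.10 in the same 2 comparisons. Klf2, a flow-responsive factor of endothelium, fell by 2.14 ± 0.11 in wild-type trachea, and Ppp1r15a and Sgk1 fell by 0.90 ± 0.10 and 0.88 ± 0.12 in Car6-/- trachea. The phosphatase gene Dusp2 was higher in trachea, by 2.51 ± 0.15 (SE) in wild-type mice. Limma adjusted p for these values ran from 1.72e-12 to 4.68e-05. The endothelial and muscle sums given above differ between the tissues beside this list too.

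**Figure D5:**
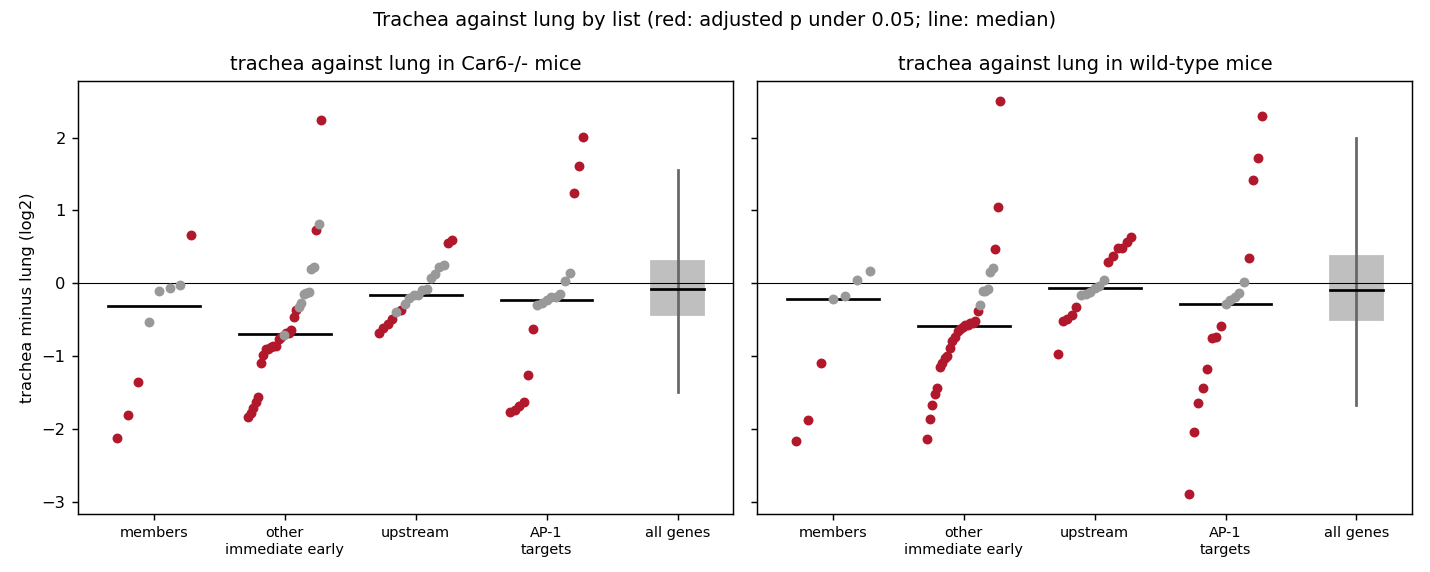
Trachea minus lung (log2, vertical axis) for the tested genes of 4 lists in Car6-/- mice (left) and wild-type mice (right); red points were called, and the black line is the list's median. The last column gives all genes, with the box from the lower to the upper quartile and the line from the 5% to the 95% quantile. Other immediate early genes have medians of -0.70 and -0.59, against -0.07 and -0.09 over all genes.

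Of the kinases and factors upstream of these genes, 0 of 19 were called with genotype in lung, beside 0.0212% of all genes. In trachea 0 of 18 were called, beside 0% of all genes. An unadjusted limma p under 0.05 was found for 3 of 19 in lung and 3 of 18 in trachea, beside 9.39% and 17.2% of all genes. In lung the smallest p belonged to Crem, a cyclic AMP response element modulator (0.45 ± 0.12, SE), and to the receptor gene Egfr (0.41 ± 0.12), with limma adjusted p of 0.19 and 0.21. Between the tissues, 2 of 18 were higher and 5 lower in Car6-/- trachea, and 6 of 17 were higher and 5 lower in wild-type trachea. The shares called were 38.9% in Car6-/- mice and 64.7% in wild-type mice, beside 48.4% and 68.3% of all genes in the same comparisons. In lists of 18 and 17 genes such gaps amount to few genes. The MAP kinase kinases Map2k2 and Map2k3 rose by 0.48 ± 0.08 and 0.49 ± 0.08 (SE) in wild-type trachea. In Car6-/- trachea Prkaca, a catalytic subunit of protein kinase A, rose by 0.59 ± 0.16 and Elk3, a ternary complex factor, fell by 0.61 ± 0.13.

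Reported targets of AP-1, 19 on the array, gave 0 called of 16 in lung and 0 of 17 in trachea between the genotypes. Over all genes the shares called were 0.0212% in lung and 0% in trachea. Trachea against lung gave 3 higher and 6 lower of 17 in Car6-/- mice and 4 higher and 8 lower of 17 in wild-type mice, with medians of -0.23 and -0.29. The shares called, 52.9% and 70.6%, were near the 48.4% and 68.3% of all genes. Vegfa, the endothelial growth factor, fell by 1.73 ± 0.13 (SE) in Car6-/- trachea, and the collagenase gene Mmp13 rose by 2.01 ± 0.24. In wild-type trachea the metalloproteinase gene Mmp3 fell by 2.89 ± 0.15 and the urokinase receptor gene Plaur by 2.05 ± 0.13, while the metallothionein genes Mt1 and Mt2 rose by 1.42 ± 0.11 and 2.29 ± 0.17.

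The genes most like the set were taken from deviations of the 28 samples from their group means, compared with the mean deviation of the 8 tested genes. Over 9718 genes the highest Pearson r were 0.65 for Snrk, 0.61 for Agpat1 and 0.56 for Ccl24, followed by Folr2, Tmem177, Pnliprp1, Spef1, Gcnt2, Rufy3 and Adamtsl2 at 0.53 to 0.55. None of these 10 is in the list of other immediate early genes. The 8 genes themselves did not all deviate together. In lung their pairs ran from -0.56 (Fos with Ier3) to 0.77 (Egr1 with Dusp1). In trachea they ran from -0.31 (Jun with Junb) to 0.72 (Junb with Ier3). The samples share the normalization, and r is given as a description only.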

How the data were processed

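RNA of 28 samples was measured on 32 Illumina bead arrays, 150 ng of total RNA per sample labelled with biotin per the labels' protocols. The values used are linear probe intensity as deposited, not normalized between arrays. Beside each intensity, per the file headers, stands a detection p-value. The authors' second table gives log2 values, which a recomputation matched to quantile normalization of each tissue's raw intensities (100% of values within 0.005). Scanner software, bead summary and chip positions were not given in the sources used here.

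Intensities were background-corrected with limma 3.58.1 in R 4.3.3 (nec with the detection p, offset 16), quantile normalized over 32 arrays and put on the log2 scale. The 4 second arrays were averaged with the first. The probe with the highest mean stood for a symbol, and unnamed probes were tested under their number. Each comparison was fitted with lmFit and eBayes on its own samples, except the difference between tissues, which used all 4 groups. Every adjusted p comes from limma over all genes tested. Array signals lay near background (median signal 92.4 to 118.3, lowest 65.7 to 82.7), and the number of arrays limits the precision. The procedure was tested on simulated data.

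The members and all gene lists were chosen with earlier results of these data known. Named were all 10 members, up to 4 genes with the smallest p per further list and comparison, the 10 genes most like the set, Car6 and cell type markers. Alternatives covered normalization, background, detection filter, second arrays, sample weights, replicate numbers, the deposited log2 table and samples left out.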

Additional observations from a re-analysis of the deposited data

Results flagged for a closer look

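Within each of 40 combinations of gene and group, the gap between the most extreme sample and its neighbour was set against the group's range (Dixon's criterion at 95%), which chance alone exceeds in about 1 of 20 groups. It was exceeded in 4. Junb was 7.059 in Car6-/- trachea 5, where the next lowest sample had 7.837. Fosb was 5.988 in wild-type trachea 6, where the next highest had 5.06 and most samples were not detected. Atf3 was 6.799 in wild-type trachea 4, against 5.336 in the next, and 5.901 in wild-type lung 5, against 5.453 in the next.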

How the results depend on the processing

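The number of called genes was 0 in every genotype comparison under all alternatives run, 4 in trachea against lung in Car6-/- mice under all, and 3 or 4 in wild-type mice. Of 1055 recomputed differences of single genes, 990 kept direction and side of the threshold, 0 lost a call, 1 gained one (Atf3 without wild-type trachea 4) and 64 changed sign, 0 of them called. The causes were not tested. Median scaling shifted the median of all genes by -0.12 in trachea against lung of Car6-/- mice. The median of the set moved to -0.15 (trachea), -0.18 (difference between tissues) and -0.59 (trachea against lung, Car6-/- mice) without Car6-/- tracheas 1, 2 and 6, and to -0.94 (Car6-/-) and -0.66 (wild type) with genes detected in all samples, 6 of the set. With the replicate block, lung gave 0 calls, a median of 0.05 and Atf3 -0.039, and trachea gave 0 calls with Fos 0.031 and Junb 0.11. Same-numbered samples did not all deviate together: median correlations were -0.18 to 0.15 over the 4 pairs of groups, and in Car6-/- and wild-type trachea 3 of 6 same-numbered pairs exceeded 0.1 (up to 0.55). The numbers were not taken to pair the samples, and the block changed no call. Other changes of sign were these. Without Car6-/- lung 5 and wild-type lung 6, lung gave Fos -0.057 and Junb -0.11. Without Car6-/- tracheas 1, 2 and 6, trachea gave Jun -0.048, Atf3 -0.18 and Dusp1 -0.12, and the difference between tissues gave Jun -0.18, Ier3 -0.15 and Atf3 -0.19. Median scaling gave Fos 0.0025 in trachea, Ier3 -0.044 for the difference between tissues and Junb -0.094 in wild-type trachea against lung. Sample weights gave Dusp1 -0.023 in trachea and Fosb -0.019 and Ier3 -0.045 for the difference between tissues, where no background correction gave Atf3 -0.0047. Leaving out 1 sample at a time gave, in lung, Fosb -0.0082 to 0.15, Junb -0.0695 to 0.12 and Atf3 -0.083 to 0.099. In trachea it gave Fos -0.15 to 0.0602, Junb -0.13 to 0.12, Atf3 -0.034 to 0.30 and Dusp1 -0.0048 to 0.14. For the difference between tissues it gave Fosb -0.014 to 0.24, Jun -0.048 to 0.23, Junb -0.16 to 0.084, Ier3 -0.085 to 0.20 and Atf3 -0.046 to 0.29. In trachea against lung it gave Fosb -0.16 to 0.022, Junb -0.12 to 0.12 and Atf3 -0.22 to 0.014 in Car6-/- mice, and Junb -0.051 to 0.14 in wild-type mice. Signal over background limits Fosb, Atf3, Ier2 and Nr4a1.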
